A study of Mus musculus with 82 samples.

Results

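The 10 genes described here are the Bcl2 family members Bcl2, Bcl2l1, Mcl1, Bcl2a1b, Bcl2a1d, Bbc3, Bcl2l11, Pmaip1, Bax and Bak1, taken by symbol from the 21823 genes that all 3 deposited count tables share. All 10 passed the filter on low counts in every model. They were followed in 82 RNA libraries of ovalbumin-specific T cells after transfer, the OT-I cells being of the CD8 and the OT-II cells of the CD4 lineage. Recipients were labelled C57BL/6 (the strain labels of the therapeutic libraries run upward from it in number), received both cell types, and were given saline, plain ovalbumin (OVA) or OVA coupled to a synthetic glycosylated polymer (pGal). Cells were sorted from pooled secondary lymphoid organs 4 days later. In the prophylactic experiment the antigen came 1 day after transfer, and its cells are called naive here; each library pooled 3 mice, and the libraries came in 2 batches. OT-I cells had 5 libraries per treatment, and OT-II cells had 5 after saline, 4 after OVA and 5 after pGal. In the therapeutic experiment the mice had first been immunized with OVA in complete Freund's adjuvant, were treated a month later, and each library came from 1 mouse. These cells are called primed here and gave 8, 10 and 10 OT-I libraries and 7, 8 and 10 OT-II libraries after saline, OVA and pGal. The amount of pGal is given in 2 ways in the labels, as 5 µg and as the molar equivalent of 5 µg of OVA, so equal antigen in the antigen groups cannot be assumed. In bulk libraries of this kind fewer cells of a type and less RNA per cell cannot be told apart.

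Total counts were between 21.2 M and 68.2 M for the 29 libraries of naive cells, and between 22.6 M and 62.5 M for the 53 of primed cells. Cd8a and Cd4, the coreceptor genes of the 2 lineages, went against the label in 11 therapeutic libraries. The 6 so labelled OT-I had a median of 804 CPM (counts scaled to effective library size) of Cd4 and 1.496 CPM of Cd8a, and the 5 labelled OT-II had 2.78 CPM of Cd4 and 929 CPM of Cd8a. The 11 libraries were left out of the main therapeutic comparisons and not moved to another group, which left 6, 8 and 8 OT-I and 6, 6 and 8 OT-II libraries after saline, OVA and pGal. Therapeutic results are given for these 42 libraries and, where the call differs, for all libraries as labelled. Every library of naive cells matched its label, but some had over 10% as much of the other coreceptor gene as of their own. These were OT-I batch 1 pGal replicate 2 (197 CPM of Cd4) and OVA replicate 1 (164 CPM of Cd4). In OT-II cells they were batch 1 pGal replicate 3 (87.3 CPM of Cd8a) and batch 2 OVA replicate 2 (118 CPM of Cd8a). All were kept in the main comparisons. B cell transcripts (10 marker genes, summed) had group medians of 76.4 to 134 CPM in the prophylactic and 425 to 527 CPM in the therapeutic experiment.

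Bcl2 family proteins decide whether the outer mitochondrial membrane is breached, the step that releases cytochrome c and commits a cell to apoptosis. Bax and Bak1 form the pore, the survival proteins Bcl2, Bcl2l1 (Bcl-xL), Mcl1 and A1 (made from the Bcl2a1 genes) hold them in check, and BH3-only proteins such as Bcl2l11 (Bim), Bbc3 (Puma) and Pmaip1 (Noxa) oppose the survival proteins. In T cells, Bcl2 is kept up by interleukin 7 in resting cells, A1 and Bcl-xL are made after antigen receptor and costimulatory signals, and Bim is needed for the death of antigen-stimulated cells.

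Bcl2a1b and Bcl2a1d are near-identical copies, and this bears on how their counts are read. Bcl2a1b lies at chr9:89199209-89207827 on the plus strand and Bcl2a1d at chr9:88723285-88731914 on the minus strand (GRCm38, GENCODE M21). Their coding sequences are identical at 510 of 516 bases (98.8%). The first 120 coding bases of each are shown because they hold 3 of the 6 differences, which are in capitals.
Bcl2a1b coding bases 1 to 120: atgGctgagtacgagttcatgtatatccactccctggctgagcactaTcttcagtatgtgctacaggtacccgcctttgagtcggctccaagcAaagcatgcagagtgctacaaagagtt
Bcl2a1d coding bases 1 to 120: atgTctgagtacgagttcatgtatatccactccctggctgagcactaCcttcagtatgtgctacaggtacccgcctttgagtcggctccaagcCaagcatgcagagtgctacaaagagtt
Of the 31-base words in each transcript, 26.7% of those of Bcl2a1b and 10.9% of those of Bcl2a1d occur in no other Bcl2a1 copy. Reads from the shared part have to be divided between the copies by estimation, so the split between them is uncertain and a sum over the copies was fitted as well. The other copies were low: Bcl2a1a had at most 5.96 CPM in any library used and Bcl2a1c at most 0.04 CPM.

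The sequence before the start of the 2 genes is also shared, and is shown to complete the comparison of the copies. Both genes were called together in most of the comparisons below in which either was. Since their counts share reads, this says nothing of their promoters. Each stretch is the part of the RefSeq promoter window (GRCm38.p6) that lies before both annotated starts, and the letters are identical at 135 of 142 aligned bases (95.1%). The windows are offset, and capitals mark aligned bases that differ or have no partner.
Bcl2a1b, chr9:89199023-89199208, plus strand: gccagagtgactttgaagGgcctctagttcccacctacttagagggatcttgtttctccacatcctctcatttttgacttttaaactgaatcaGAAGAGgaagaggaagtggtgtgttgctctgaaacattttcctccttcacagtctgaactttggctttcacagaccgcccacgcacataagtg
Bcl2a1d, chr9:88731915-88732100, minus strand: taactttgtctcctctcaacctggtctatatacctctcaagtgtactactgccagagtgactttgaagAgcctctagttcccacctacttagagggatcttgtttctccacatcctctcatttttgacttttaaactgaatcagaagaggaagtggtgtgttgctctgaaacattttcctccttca
The promoter windows of 9 members were also searched for 6 spellings of NF-kB, FOXO, STAT and E2F motifs, chosen with the expression results known. None of the 6 was found in either Bcl2a1 window, which says only that those letters are not there, and the matches of the other members are not described here.

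Without antigen, Mcl1 and Bax were the most abundant members per length and Bak1 the least abundant in all 4 saline groups. Per kilobase of the longest coding transcript, naive OT-I cells had 170 ± 34.4 CPM of Bax, 148 ± 9.55 CPM of Mcl1, 41.5 ± 14.4 CPM of Bbc3 and 35.7 ± 7.90 CPM of Bcl2 (mean ± SD, n = 5). In the same scale they had 21.2 ± 5.79 CPM of Bcl2a1b, 14.9 ± 2.92 CPM of Bcl2l11, 10.0 ± 1.83 CPM of Bcl2l1, 8.57 ± 1.61 CPM of Pmaip1, 5.72 ± 1.597 CPM of Bcl2a1d and 0.527 ± 0.326 CPM of Bak1. The ranges of mean ± SD overlapped for Bax and Mcl1, Bbc3 and Bcl2, Bcl2a1b and Bcl2l11, Bcl2l1 and Pmaip1, and Pmaip1 and Bcl2a1d, and for no other neighbours in this order. In naive OT-II cells Mcl1 came first, with 209 ± 17.5 CPM per kilobase, ahead of Bax with 135 ± 27.7. In primed cells Bcl2a1b came next after Bax and Mcl1 in both cell types, at 92.6 ± 22.5 CPM per kilobase in OT-I cells and 143 ± 28.8 in OT-II cells (n = 6). It also came next in naive OT-II cells, at 21.6 ± 4.66 CPM per kilobase (n = 5), where its range overlapped that of Bcl2l11 (17.2 ± 3.02). Bcl2l11 has coding transcripts of 672 to 5036 bases, so its place depends on the length used: with the shortest transcripts it had 112 CPM per kilobase in naive OT-I cells. All levels below are per library and not per length. Bak1 had the least depth behind it, at most 8.49 CPM in the libraries used.

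**Figure D1:**
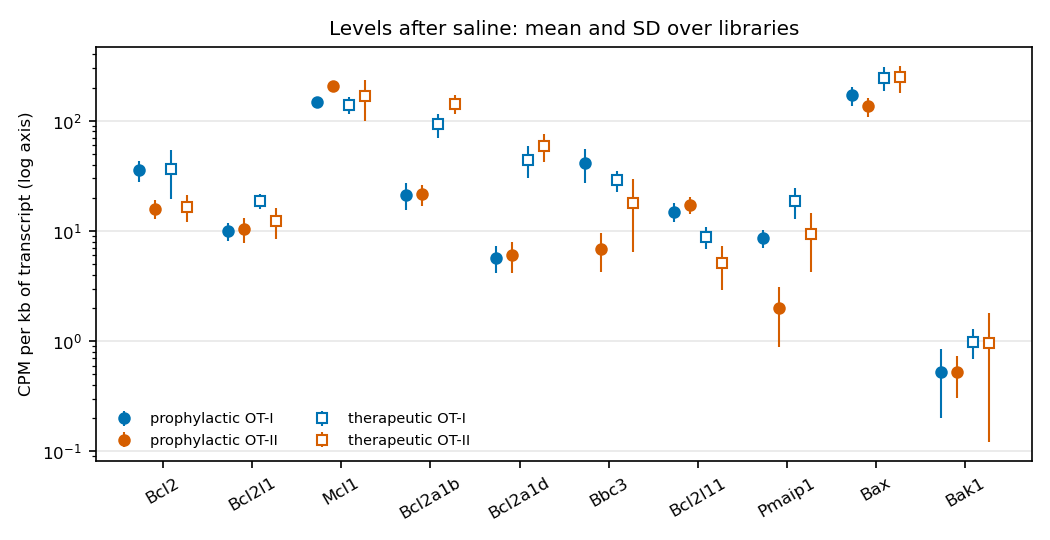
Mean normalized CPM per kilobase of the longest coding transcript (log axis) after saline for the 10 genes, with bars of 1 SD over 5 naive (prophylactic, filled circles) or 6 primed (therapeutic, open squares) libraries; OT-I in blue and OT-II in orange. Mcl1 and Bax are at the top and Bak1 at the bottom in every group, and Bcl2a1b and Bcl2a1d are higher in both primed groups than in both naive ones.

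The saline libraries of naive cells differed by lineage in 5 of the 10 genes (4 higher and 1 lower in OT-I cells), where 18.1% of the 14845 genes tested were called at an adjusted p under 0.05, 10% higher and 8.12% lower. Bbc3, which encodes Puma, was 105, 79.5, 92.9, 40.3 and 58.2 CPM in the naive OT-I saline libraries and 17.6, 8.76, 13.7, 6.30 and 16.2 CPM in the naive OT-II ones. The groups did not overlap, and Bbc3 was 6.02-fold higher in OT-I cells (log2 2.49, SE 0.29, adjusted p = 5.904e-07 in edgeR's quasi-likelihood test). Pmaip1, which encodes Noxa, was 24.0, 19.1, 24.3, 29.9 and 19.5 CPM in OT-I and 6.40, 6.32, 4.84, 9.07 and 0.751 CPM in OT-II libraries, again without overlap (log2 2.06, SE 0.59, adjusted p = 0.015). Bcl2 averaged 256 ± 56.8 CPM in OT-I and 114 ± 23.0 CPM in OT-II cells (n = 5 each), and no OT-I library was as low as any OT-II library (log2 1.15, SE 0.21, adjusted p = 1.893e-04). Mcl1, which encodes a short-lived survival protein, went the other way, with 505 ± 32.7 CPM in OT-I and 713 ± 59.7 CPM in OT-II cells (log2 -0.51, SE 0.11, adjusted p = 0.0014), and no overlap. Bax was slightly higher in OT-I cells (log2 0.33, SE 0.10, adjusted p = 0.016), with groups that overlapped. Bcl2l1, Bcl2a1b, Bcl2a1d, Bcl2l11 and Bak1 did not pass the test. Across the 10 genes the median log2 difference was -0.05, against -0.02 over all genes. These calls held with each saline library left out in turn, except that of Bax, which was lost in 2 of 10 such fits, and without the libraries over 100 CPM of the B cell gene Cd79a.

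In naive OT-I cells both forms of antigen raised the same 3 survival genes. Bcl2l1, Bcl2a1b and Bcl2a1d rose against saline after pGal (3 of 10 higher, 0 lower, where 3.35% of 13802 genes were called, 2.64% higher) and after OVA (3 higher and 1 lower, where 5.39% were called, 4.12% higher and 1.28% lower). The 2 comparisons share the saline libraries. Bcl2a1b was 22.4, 16.8, 13.8, 21.9 and 11.9 CPM after saline, 37.5, 46.7, 50.5, 39.3 and 61.1 CPM after OVA and 32.6, 41.6, 31.8, 61.0 and 62.2 CPM after pGal. Every library given antigen was above every saline library. The log2 rise was 1.45 (SE 0.21, adjusted p = 0.0013) after OVA and 1.37 (SE 0.21, adjusted p = 0.0051) after pGal. Bcl2a1d was 5.87, 4.43, 3.91, 6.86 and 3.63 CPM after saline, 13.4, 17.2, 18.2, 17.5 and 19.3 CPM after OVA and 9.44, 13.0, 10.2, 17.7 and 25.7 CPM after pGal, again with no overlap. Its log2 rise was 1.81 (SE 0.23, adjusted p = 4.751e-04) after OVA and 1.57 (SE 0.23, adjusted p = 0.0033) after pGal. With the copies summed, the Bcl2a1 genes rose by 1.503 after OVA (adjusted p = 8.272e-04) and by 1.38 after pGal (adjusted p = 0.0053).

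Bcl2l1, at chr2:152780668-152831728 on the minus strand, was 21.8, 32.4, 29.1, 22.7 and 22.8 CPM after saline, 45.7, 57.9, 56.1, 39.2 and 33.3 CPM after OVA and 37.1, 40.7, 36.4, 48.7 and 57.8 CPM after pGal in naive OT-I cells. The lowest library given either antigen was above the highest saline library. The log2 rise was 0.87 (SE 0.17, adjusted p = 0.0078) after OVA and 0.80 (SE 0.17, adjusted p = 0.022) after pGal. Within batch 1 and batch 2 alone it was 0.97 and 0.68 after OVA and 0.47 and 1.22 after pGal, so the order of the batches differed between the antigens. The pGal call was lost in batch 1 alone (adjusted p = 0.38), in 4 of 15 fits that left out 1 library (each a batch 2 saline or pGal library), without the Cd79a-rich libraries (adjusted p = 0.065) and without a term for batch (adjusted p = 0.054). Within the batches the rises of Bcl2a1b were 1.38 and 1.58 after OVA and 1.01 and 1.86 after pGal, and those of Bcl2a1d 1.80 and 1.81 after OVA and 1.21 and 2.04 after pGal. In batch 2 alone, with 2 libraries a group, none of the 3 genes was called after OVA (adjusted p = 0.18 for Bcl2l1, 0.16 for each Bcl2a1 gene), and Bcl2a1b was called after pGal in neither batch alone (adjusted p = 0.053 and 0.051).

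Bcl2 stood lower in naive OT-I cells given antigen, and Bbc3 in those given OVA, with weaker tests. Bcl2, at chr1:106538178-106714274 on the minus strand, was 261, 300, 323, 192 and 207 CPM after saline and 184, 149, 190, 139 and 140 CPM after OVA. These groups did not overlap, but the log2 difference of -0.62 (SE 0.22) did not pass the test (adjusted p = 0.12 in edgeR, 0.027 in DESeq2). After pGal Bcl2 was 245, 203 and 275 CPM in batch 1 and 79.9 and 59.9 CPM in batch 2, so the batches lay apart (log2 -0.70, SE 0.22, adjusted p = 0.097; -0.27 in batch 1 and -1.52 in batch 2 alone, adjusted p = 0.68 and 0.018). Bbc3, at chr7:16308393-16318205 on the plus strand, averaged 75.2 ± 26.2 CPM after saline and 42.9 ± 17.4 CPM after OVA (n = 5 each), with overlap. It fell by 0.81 on the log2 scale (SE 0.22, adjusted p = 0.045), and by 0.75 and 0.89 within the batches. That call was lost in 11 of 15 fits that left out 1 library and in 6 of 12 other settings, without the Cd79a-rich libraries among them. After pGal Bbc3 averaged 58.1 CPM (n = 5), overlapped the saline group and was not called, and 2 of the 5 libraries lay above the saline mean. Mcl1 stayed between 422 and 537 CPM in all 15 naive OT-I libraries, and neither it nor Bcl2l11, Pmaip1, Bax or Bak1 passed the test after either antigen. Over all 10 genes the median log2 difference from saline was 0.14 after OVA and 0.18 after pGal, against medians of 0.00 over all genes.

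Between pGal and OVA no member was called in naive OT-I cells, where edgeR called 0 of 13802 genes (0%). DESeq2 called 1 gene, and 420 genes had an unadjusted p under 0.05. The group means lay close: Bcl2a1b was 45.8 ± 14.9 CPM with pGal beside 47.0 ± 9.50 CPM with OVA, and Bcl2l1 was 44.1 ± 9.04 and 46.4 ± 10.6 CPM (n = 5 each).

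**Figure D2:**
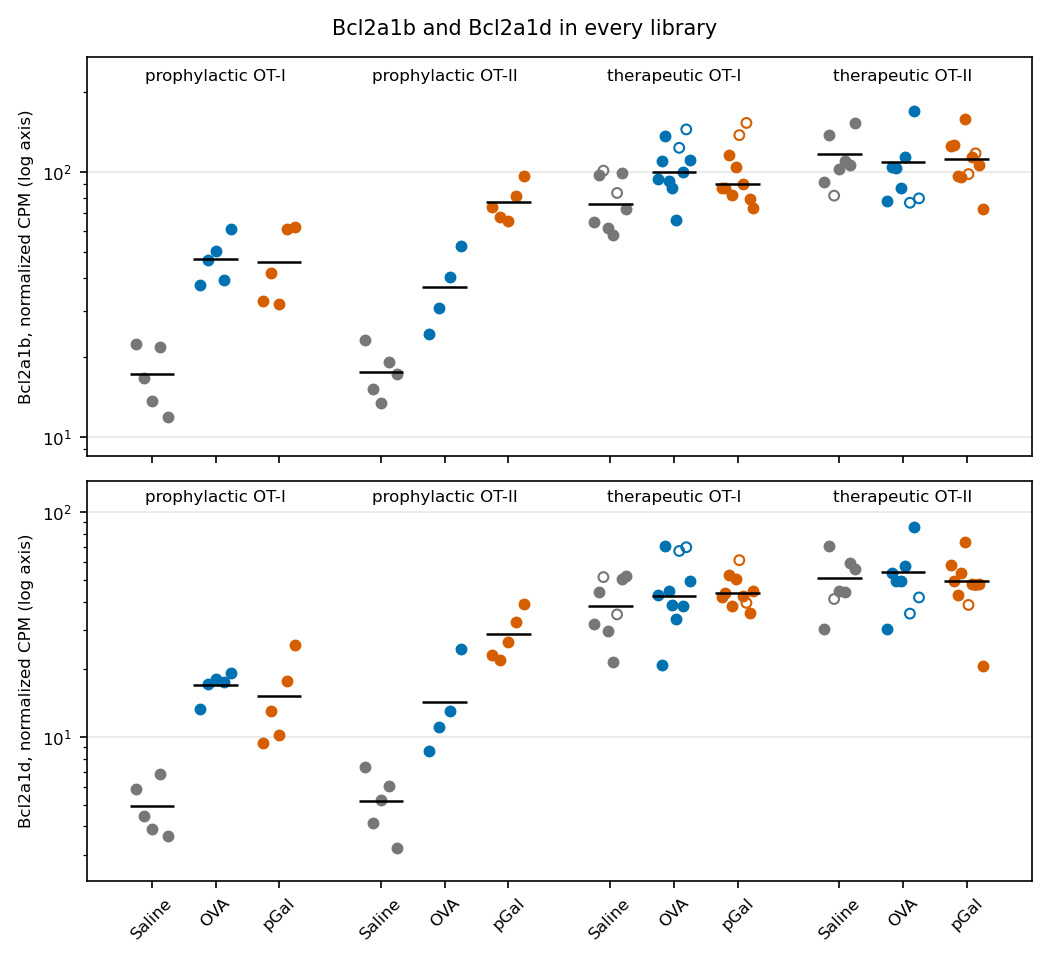
Normalized CPM (log axis) of Bcl2a1b (top) and Bcl2a1d (bottom) in each library by experiment, cell type and treatment; lines are means of the libraries whose coreceptor matches the label (filled), and open circles are the 11 libraries that go against it. In naive OT-II cells all 5 pGal libraries (65.2 to 96.5 CPM of Bcl2a1b) lie above all 4 OVA libraries (24.4 to 52.6 CPM), while the primed groups overlap.

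In naive OT-II cells pGal raised Bcl2a1b and Bcl2a1d far above saline, and Bcl2a1b above OVA. Bcl2a1b was 23.3, 15.2, 13.5, 19.2 and 17.3 CPM after saline, 30.7, 24.4, 40.3 and 52.6 CPM after OVA and 73.7, 67.7, 65.2, 81.2 and 96.5 CPM after pGal. The 3 groups did not overlap. Against saline the pGal libraries were 4.35-fold higher (log2 2.10, SE 0.18, adjusted p = 1.694e-05), and against OVA 2.08-fold higher (log2 1.11, SE 0.19, adjusted p = 0.010). Bcl2a1d was 7.35, 4.14, 5.27, 6.03 and 3.22 CPM after saline, 11.1, 8.70, 13.1 and 24.6 CPM after OVA and 23.1, 22.0, 26.4, 32.3 and 39.2 CPM after pGal. The highest OVA library overlapped the pGal group, and only the saline group lay clear of both. Bcl2a1d rose by 2.40 on the log2 scale over saline (SE 0.29, adjusted p = 2.146e-04), and the difference of 1.04 from OVA was not called (SE 0.30, adjusted p = 0.11). Of the 10 genes, 2 were called against saline, both higher (11.7% of 14128 genes called, 6.37% higher), and 1 higher against OVA (1.87% called, 1.11% higher).

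The highest OVA library, replicate 2 of batch 2, was rich in B cell transcripts (1389 CPM of Cd79a), as was replicate 3 of the batch 1 pGal libraries (1050 CPM). The OVA library also had 118 CPM of Cd8a beside 248 CPM of Cd4, and the pGal library 87.3 CPM beside 511 CPM. The summed markers of myeloid and NK cells were also highest in these libraries: 2193 and 654 CPM in the OVA library, against group medians of 188 and 41.4 CPM, and 3381 and 296 CPM in the pGal library, against 158 and 53.4 CPM. The part of these cells, or of cells with Cd8a, in the levels was not tested. Without the libraries over 100 CPM of Cd79a, the pGal rise over OVA was 1.29 for Bcl2a1b (adjusted p = 0.0043) and 1.37 for Bcl2a1d (adjusted p = 0.025), and the rise over saline was 2.10 and 2.44. With the copies summed, the rise over OVA was 1.06 (adjusted p = 0.025). Within batch 1 and batch 2 alone, the rise of Bcl2a1b over OVA was 1.32 and 0.90 and over saline 1.97 and 2.27, and the call over OVA was lost in batch 2 alone (adjusted p = 0.53), as were those over saline of Bcl2a1b (adjusted p = 0.088) and Bcl2a1d (adjusted p = 0.17). It was also lost without either batch 1 OVA library. OVA itself placed both Bcl2a1 genes above saline in all 4 libraries, by 0.99 and 1.36 on the log2 scale (SE 0.18 and 0.30), but edgeR called neither (adjusted p = 0.063 and 0.15) and called 0.163% of all genes, whereas DESeq2 called both (adjusted p = 2.363e-04 and 0.0023).

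The other survival genes of naive OT-II cells moved less. Bcl2l1 was 28.7, 26.0, 30.6, 33.2 and 15.5 CPM after saline and 40.8, 39.0, 31.0, 52.0 and 57.2 CPM after pGal, a log2 difference of 0.71 (SE 0.23, adjusted p = 0.062) that was called in DESeq2 (adjusted p = 0.015) and without the Cd79a-rich libraries (0.94, adjusted p = 0.013). Bcl2 was 120, 140, 129, 99.9 and 83.0 CPM after saline and 80.2, 90.0, 116, 68.6 and 74.7 CPM after pGal (log2 -0.41, SE 0.14, adjusted p = 0.069; -0.47 without the Cd79a-rich libraries, adjusted p = 0.014). Mcl1 averaged 713 ± 59.7 CPM after saline and 566 ± 117 CPM after pGal (log2 -0.34, SE 0.14, adjusted p = 0.15; -0.39 without those libraries, adjusted p = 0.034). Pmaip1 was below 10 CPM in all 5 saline libraries and in 3 of 4 OVA libraries. The fourth, the Cd79a-rich replicate 2 of batch 2, had 43.0 CPM, and the Cd79a-rich pGal library had 29.1 CPM, the highest of its group. Bbc3, Bcl2l11, Bax and Bak1 were not called. The median over the 10 genes was 0.46 against saline after pGal, beside 0.04 over all genes.

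Whether the lineages differed in these responses was tested directly. No member was called for a difference between OT-I and OT-II cells in any of the 3 responses of naive cells, where 0.505% (pGal relative to OVA), 1.17% (pGal relative to saline) and 0.0337% (OVA relative to saline) of all genes were called. The value for Bcl2a1b in pGal against OVA was -1.18 (SE 0.29, adjusted p = 0.060 in edgeR, 0.0075 in DESeq2), and that for Bcl2a1d -1.28 (SE 0.37, adjusted p = 0.13 and 0.032). Both were called in edgeR without the Cd79a-rich libraries (-1.37 and -1.57, adjusted p = 0.023 and 0.031).

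**Figure D3:**
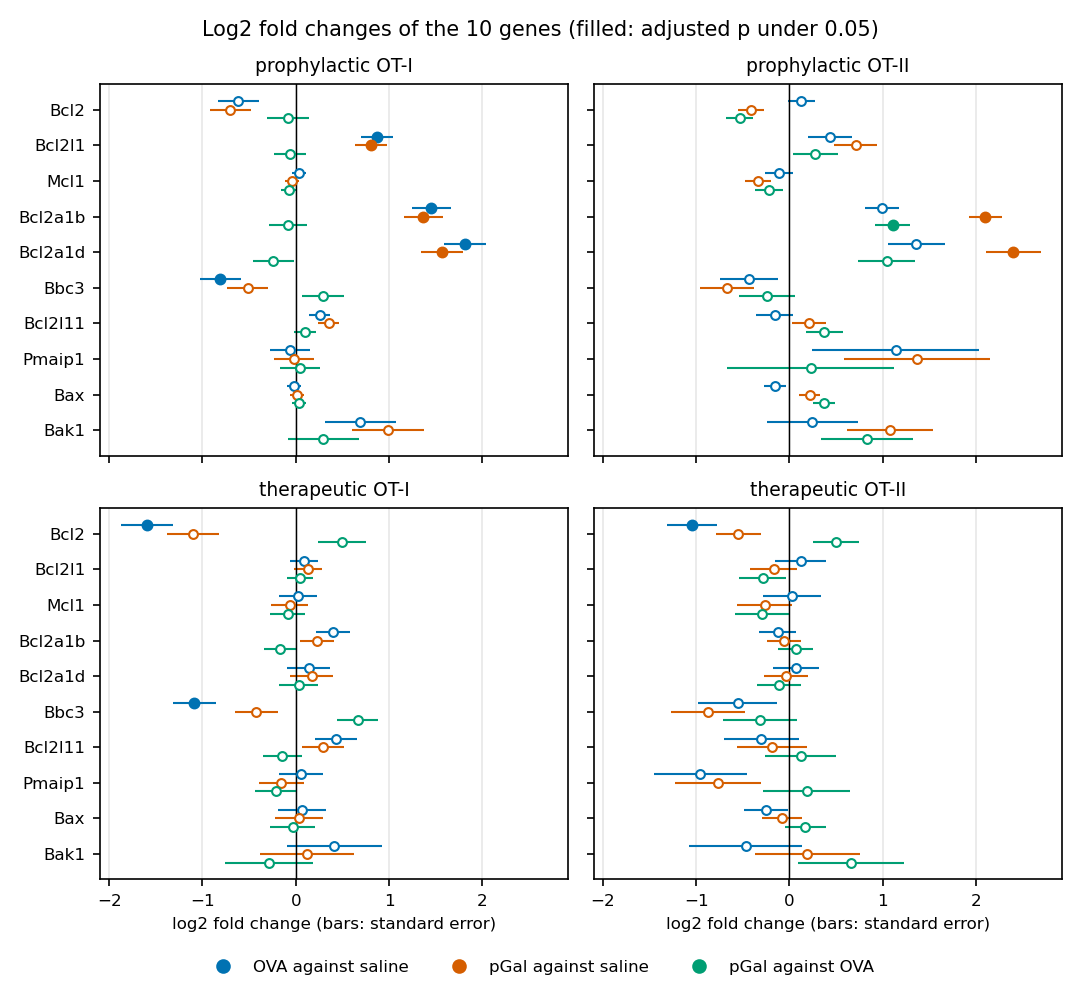
Log2 fold changes of the 10 genes (rows) with bars of 1 standard error in the 4 experiment and cell type combinations, for OVA against saline, pGal against saline and pGal against OVA; filled points have an adjusted p under 0.05. The filled points are Bcl2l1, Bcl2a1b, Bcl2a1d and Bbc3 in naive OT-I cells, Bcl2a1b and Bcl2a1d in naive OT-II cells, Bcl2 and Bbc3 in primed OT-I cells and Bcl2 in primed OT-II cells.

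In primed cells OVA lowered Bcl2 in both lineages. In primed OT-I cells it ranged from 166 to 497 CPM after saline (median 233, n = 6), from 45.6 to 141 CPM after OVA (median 94.1, n = 8) and from 102 to 162 CPM after pGal (median 121, n = 8). Both antigen groups lay wholly below the saline group. OVA lowered Bcl2 by 1.59 on the log2 scale (SE 0.28, adjusted p = 0.0052), and the call held in all 8 other settings and all 22 fits that left out 1 library. With all libraries as labelled the value was -1.45 (adjusted p = 0.045), and the saline group then reached down to 68.5 CPM. After pGal the log2 difference was -1.10 (SE 0.28), and edgeR did not call it (adjusted p = 0.39) nor any of 14581 genes (0%), although 952 had an unadjusted p under 0.05 and DESeq2 called 20. No alternative called Bcl2 after pGal, and its adjusted p ranged from 0.055 to 0.90 over them. Against OVA the pGal libraries were not called either, with 0% of genes called by edgeR, 418 at an unadjusted p under 0.05 and 4 in DESeq2.

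Bbc3 also fell in primed OT-I cells after OVA, so that 2 of 10 genes were called, both lower, where 0.686% of genes were, 0.418% lower. It ranged from 31.0 to 61.5 CPM after saline (median 55.5), from 15.0 to 42.4 CPM after OVA (median 20.2) and from 24.1 to 70.8 CPM after pGal (median 38.7), and the groups overlapped. The fall was 1.09 on the log2 scale (SE 0.23, adjusted p = 0.024). It was lost with all libraries as labelled (adjusted p = 0.18), with no filter on low counts (adjusted p = 0.071), with a replicate block (adjusted p = 0.085) and in 8 of 22 fits that left out 1 library. Over the 10 genes the median was 0.08, beside 0.05 over all genes.

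In primed OT-II cells Bcl2 ranged from 91.5 to 171 CPM after saline (median 103, n = 6), from 41.8 to 94.3 CPM after OVA (median 48.6, n = 6) and from 41.5 to 146 CPM after pGal (median 75.0, n = 8), and the ranges overlapped. OVA lowered it by 1.05 on the log2 scale (SE 0.26, adjusted p = 0.047), and it was the only member called, where 1.54% of genes were, 0.927% lower. The call held with all libraries as labelled (-1.13, adjusted p = 0.042), and was lost without the Cd79a-rich libraries (-1.16, adjusted p = 0.078) and in 15 of 20 fits that left out 1 library, with adjusted p up to 0.13. No member was called after pGal against saline, where 0.00702% of genes were called. Against OVA edgeR called 0 genes (0%), with 1013 at an unadjusted p under 0.05 and 29 in DESeq2. No member was called for a difference between the lineages in any response of primed cells, where 0%, 0% and 0.121% of genes were called for the contrasts of pGal with OVA, of pGal with saline and of OVA with saline.

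**Figure D4:**
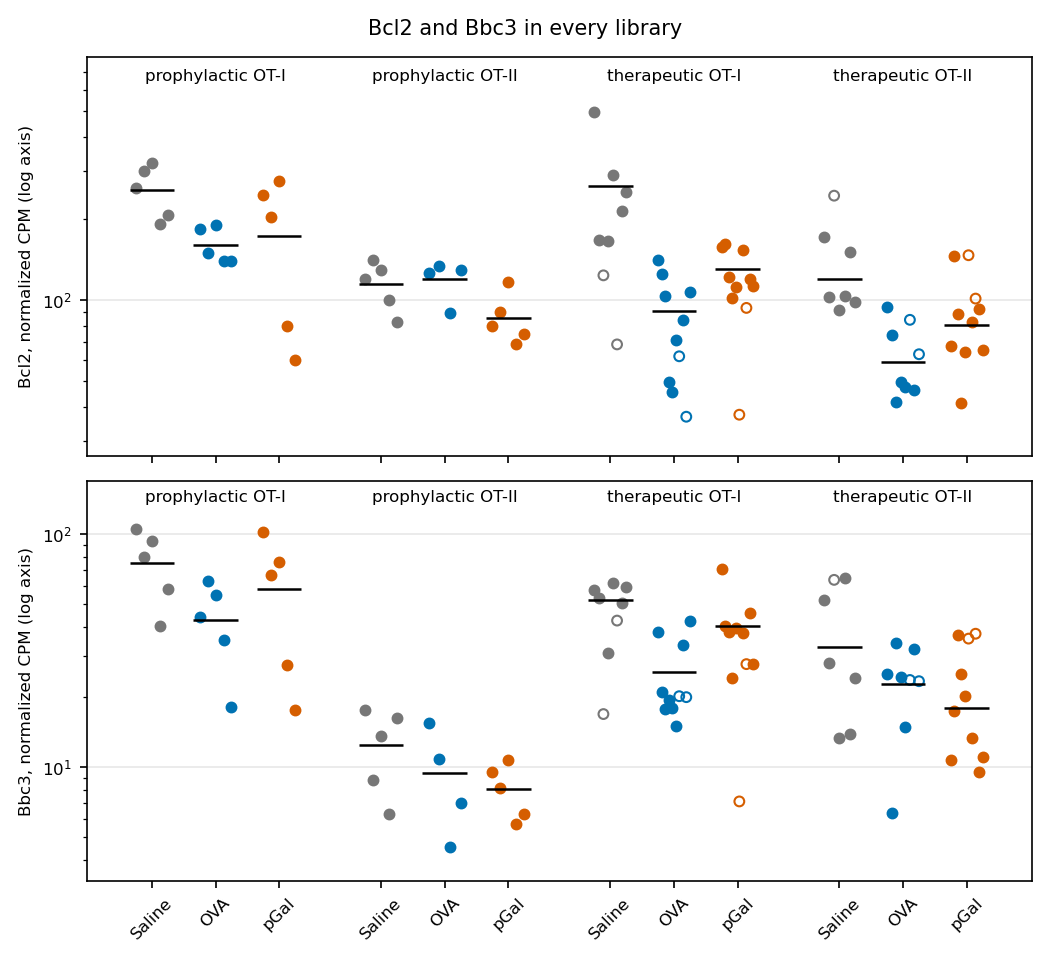
Normalized CPM (log axis) of Bcl2 (top) and Bbc3 (bottom) in each library by experiment, cell type and treatment; lines are means of the libraries whose coreceptor matches the label (filled), and open circles are the 11 libraries that go against it. In primed OT-I cells every filled OVA (45.6 to 141 CPM) and pGal (102 to 162 CPM) point of Bcl2 lies below every filled saline point (166 to 497 CPM), and the open saline points lie lower.

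The primed saline libraries of the lineages differed in 2 of 10 genes, 1 in each direction, where 9% of genes were called, 4.42% higher and 4.59% lower. Bcl2 averaged 264 ± 124 CPM in OT-I and 120 ± 32.8 CPM in OT-II cells (n = 6 each; log2 1.17, SE 0.28, adjusted p = 0.0042), a difference of the same direction as in naive cells. Bcl2a1b was lower in OT-I cells, with 75.7 ± 18.4 against 117 ± 23.5 CPM (log2 -0.63, SE 0.19, adjusted p = 0.031), and this call was lost without the Cd79a-rich libraries (-0.53, adjusted p = 0.13). With all libraries as labelled neither was called (adjusted p = 0.65 and 0.62), and edgeR called 0 genes. By coreceptor those groups mix the lineages, so that setting cannot decide whether a gene differs between them. The call of Bcl2 was lost in no other setting. With the replicate number as a block 4 members were called, Bcl2l11 (1.16, adjusted p = 0.018) and Pmaip1 (1.302, adjusted p = 0.039) in addition, both higher in OT-I cells. Over all genes the block also gave more calls, 1800 against 1418 without it.

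Primed cells that had been given only saline carried far more Bcl2a1 RNA than naive ones. Priming, the number of mice per library, the sorting medium and the libraries' batches all differed between the experiments and cannot be told apart. In OT-I cells Bcl2a1b was 11.9 to 22.4 CPM in naive (median 16.8, n = 5) and 57.7 to 99.2 CPM in primed libraries (median 68.9, n = 6), 4.37-fold higher without overlap (log2 2.07, SE 0.21, adjusted p = 1.006e-11). Bcl2a1d was 3.63 to 6.86 CPM and 21.6 to 52.1 CPM (log2 2.90, SE 0.28, adjusted p = 4.023e-12). In OT-II cells the log2 differences were 2.69 (SE 0.21, adjusted p = 3.177e-15) for Bcl2a1b and 3.21 (SE 0.29, adjusted p = 2.054e-13) for Bcl2a1d, with primed libraries at 91.5 to 153 CPM and 30.3 to 70.5 CPM. B cells also express A1. The summed B cell markers had medians of 92.8 and 497 CPM in naive and primed OT-I saline libraries and of 134 and 527 CPM in OT-II ones, and their part in the difference was not tested. Within the naive OT-I saline group, the library with the highest B cell sum (1826 CPM) had 21.9 CPM of Bcl2a1b, near the top of the range of 11.9 to 22.4 CPM. It had 6.86 CPM of Bcl2a1d, the highest of its group. Without the libraries over 100 CPM of Cd79a the differences were 2.14 and 3.01 in OT-I and 2.58 and 3.19 in OT-II cells. Of the primed saline libraries used, that setting left out only OT-II replicate 7 (116 CPM of Cd79a), so it cannot show the part of B cells.

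Of the 10 genes, 4 were called between the experiments in OT-I saline libraries, all higher in primed cells, where 17.1% of genes were called and 8.64% higher, and 6 in OT-II libraries, 5 higher and 1 lower, where 18.5% were, 11.5% higher and 7.03% lower. Bcl2l11, at chr2:128126038-128162547 on the plus strand, was the one lower: naive OT-II libraries had 64.3, 89.9, 78.9, 96.3 and 103 CPM and primed ones 10.7 to 41.0 CPM (median 23.2), with no overlap (log2 -1.75, SE 0.31, adjusted p = 2.083e-05). In OT-I cells it also lay lower without overlap, at 58.6 to 94.7 CPM in naive and 25.2 to 53.5 CPM in primed libraries, but was not called (log2 -0.77, SE 0.30, adjusted p = 0.068). Primed OT-II cells had more Pmaip1 (log2 2.18, SE 0.53, adjusted p = 0.0020), Bbc3 (1.46, SE 0.36, adjusted p = 0.0025) and Bax (0.94, SE 0.21, adjusted p = 8.089e-04). Primed OT-I cells had more Bcl2l1 (0.91, SE 0.24, adjusted p = 0.0053) and Bax (0.59, SE 0.21, adjusted p = 0.042). Against naive batch 1 or batch 2 alone, Bcl2l1 was 0.78 and 1.10 and was called in neither (adjusted p = 0.084 and 0.076), and in OT-I cells Bax was 0.34 and 0.86 and was called in neither (adjusted p = 0.52 and 0.14). With all libraries as labelled both calls in OT-I cells were lost (adjusted p = 0.053 and 0.068), and that of Bax was also lost without the Cd79a-rich libraries (adjusted p = 0.11) and in 18 of 29 fits that left out 1 naive library. In OT-II cells Bbc3 was called against neither naive batch alone (adjusted p = 0.061 and 0.10), Pmaip1 was lost against batch 2 (adjusted p = 0.073) and Bax against batch 1 (adjusted p = 0.14), while Bcl2l11 was called against each. Bcl2 and Mcl1 were called in neither lineage. The median over the 10 genes was 0.75 in OT-I and 1.02 in OT-II cells, beside 0.07 and 0.16 over all genes.

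The Bcl2a1 response to antigen was smaller in primed than in naive cells where the difference could be called. For pGal against saline in OT-II cells, the primed response was lower than the naive one by 2.18 for Bcl2a1b (log2 -2.18, SE 0.27, adjusted p = 6.871e-08) and 2.46 for Bcl2a1d (log2 -2.46, SE 0.36, adjusted p = 3.342e-06), the 2 members called where 1.09% of genes were, 0.925% lower. Both calls held in all 6 other settings and in all 29 fits that left out 1 naive library. In the primed OT-II cells Bcl2a1b averaged 117 ± 23.5 CPM after saline and 112 ± 25.9 CPM after pGal, against 17.7 ± 3.81 and 76.9 ± 12.6 CPM in naive cells. For OVA against saline in OT-I cells, Bcl2a1d differed by -1.64 (SE 0.35, adjusted p = 0.024), the 1 member called where 0.0756% of genes were. This call was lost with all libraries as labelled (adjusted p = 0.070), against batch 1 or batch 2 alone (adjusted p = 0.12 and 1.0) and in 5 of 29 fits that left out 1 naive library. No member was called for the other 4 differences between the experiments, where 0% and 0.0233% of genes were called in OT-I cells (pGal against OVA and against saline) and 0.361% and 0.372% in OT-II cells (pGal against OVA, and OVA against saline).

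The balance of members within a library is given as ratios of normalized CPM, with no test. Bcl2l11 over Bcl2 was 0.313 ± 0.121 after saline, 0.559 ± 0.123 after OVA and 0.848 ± 0.673 after pGal in naive OT-I cells, where the pGal median of 0.421 lay below the OVA median of 0.617. It was 0.798 ± 0.296, 0.711 ± 0.393 and 1.21 ± 0.369 in naive OT-II cells. In primed OT-I cells it was 0.197 ± 0.0953, 0.837 ± 0.490 and 0.465 ± 0.216. Primed OT-II cells had 0.224 ± 0.108, 0.403 ± 0.196 and 0.348 ± 0.312. Bcl2l1 over Bcl2 was 0.102 ± 0.0145 after saline in naive OT-I cells and 0.290 ± 0.0594 after OVA, with the highest saline library (0.118) below the lowest OVA library (0.238). In every combination of experiment and lineage the mean of Bcl2l1 over Bcl2 was lower after saline than after either antigen.

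Genes of the surrounding pathways were counted from lists chosen by function. Of 14 genes of the apoptosome, caspases and their inhibitors, 3 rose and 0 fell in naive OT-I cells after pGal and the same numbers after OVA, and in naive OT-II cells after pGal, beside 2.64%, 4.12% and 6.37% of all genes called higher. Birc5, which encodes survivin and is a gene of dividing cells, rose in naive OT-I cells by 2.11 after pGal and 2.52 after OVA. Of 15 survival cytokine receptors and signals, 2 rose and 3 fell in naive OT-II cells after pGal against saline, where 11.7% of all genes were called in either direction. Il2rb, the shared receptor chain for interleukins 2 and 15, rose by 2.39 (adjusted p = 1.045e-05), and Il7r, the interleukin 7 receptor, fell by 1.395 (adjusted p = 2.973e-05). After OVA Il7r also fell in primed cells, by 1.73 in OT-I (adjusted p = 7.97e-04) and 1.52 in OT-II (adjusted p = 0.0077). Bcl2 was called lower in these primed groups but not in naive OT-II cells after pGal, and a link between the genes was not tested. Among 8 NF-kB factors, Nfkb1 rose in naive OT-II cells after pGal (0.85, adjusted p = 6.91e-04), beside 6.37% of all genes. Nfkb2 and Relb fell in primed OT-II cells after OVA (-0.75 and -0.88, adjusted p = 0.023 and 0.046), beside 0.927% of all genes called lower. Of 10 genes of the p53 arm, Trp53inp1 was the only one called in any comparison with saline, and it rose in 5 of the 8. In those 8, from 0% to 11.7% of all genes were called in either direction. Of 10 death receptor genes, only Fas was called in these comparisons, in naive OT-I cells after OVA (0.40, adjusted p = 0.031), beside 4.12% of all genes called higher there. Of 16 other family members, 12 were tested in naive OT-II cells, and only Bad rose after pGal (0.57, adjusted p = 0.020), beside 6.37% of all genes called higher there.

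Across the means of the 12 groups, the genes most like Bcl2a1b in log2 CPM were Bcl2a1d (Pearson's r = 0.99), Plscr1 (0.99) and Nsd2 (0.98). Those most like Bcl2 were Pcsk4, Adgrg3 and Uchl5 (0.96, 0.96 and 0.95), those most like Bbc3 were Sars2, Rmi2 and Serbp1 (0.98, 0.98 and 0.97), and those most like Bcl2l1 were Txn1, Hist1h1b and Cdk1 (each 0.93). These are descriptions over 12 points that share normalization and, within an experiment, handling. Among the members themselves, the pair Bcl2a1b and Bcl2a1d had the highest r of the 45 pairs, and Mcl1 with Pmaip1 the lowest (-0.81). Only 10.9% of the 31-base words of Bcl2a1d occur in no other copy. Reads are therefore divided between the 2 copies by estimation, and their r cannot be read as a likeness of 2 separate measurements.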

How the data were processed

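The deposited values are estimated counts for protein-coding genes. Per the submitters' processing notes the tools were bcl2fastq and kallisto 0.46.1 and the build GRCm38. Libraries were made with SmartSeq v4 and sequenced as paired 150-base reads, per the labels' protocols. Counts were whole numbers and were used as such. They were filtered (filterByExpr), scaled (TMM) and fitted over all genes with edgeR 4.0.16 (robust quasi-likelihood, R 4.3.3), with a batch term for prophylactic libraries. Calls needed an adjusted p (Benjamini-Hochberg) below 0.05. The fits were tested on simulated data. Therapeutic libraries entered where their own coreceptor exceeded the other. Levels are TMM-normalized CPM over all 82 libraries, except that Cd4, Cd8a and Cd79a are in plain CPM. Alternatives were DESeq2 1.42.0, limma 3.58.1 (voom), other scaling, filter, batch, block and library choices. The genes, lists, motif spellings and the choice of libraries were made with earlier results of these data known. Leaving out saline libraries in the lineage comparison and naive libraries between experiments was also chosen after seeing the data. All 10 genes were described; from each list, at most 4 called genes with the smallest adjusted p were named, and 3 genes of most like pattern per member. Amplified reads are not independent molecules, so precision was taken from the spread between libraries. The result of 1 gene of the pathway lists is not reported here.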

Additional observations from a re-analysis of the deposited data

Results flagged for a closer look

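Of 120 combinations of gene and group, 6 held a library set apart from the rest of its group by Dixon's test at the 95% level; chance sets apart about 1 group in 20. In primed cells these were Bak1 in OT-I OVA replicate 2 (8.49 CPM, the next library 3.77) and in OT-II saline replicate 7 (6.35 CPM, next 2.30), Bbc3 in OT-I saline replicate 4 (31.0 CPM, next 50.8) and in OT-I pGal replicate 1 (70.8 CPM), and Bcl2l11 in OT-I saline replicate 8 (25.2 CPM). In naive cells it was Pmaip1 in OT-II OVA replicate 2 of batch 2 (43.0 CPM), the library with the most Cd79a (1389 CPM). Of the responses, 3 differed between primed and naive cells by an interaction term in edgeR: Bcl2a1b and Bcl2a1d after pGal against saline in OT-II cells (-2.18 and -2.46) and Bcl2a1d after OVA against saline in OT-I cells (-1.64).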

How the results depend on the processing

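Of 280 results (10 genes in 28 comparisons), 33 were called, 13 of them in every alternative run and 20 lost in at least 1, while 22 were called in an alternative only. None of these, nor of 2 more whose groups did not overlap, changed sign. The other 223 were not tabulated, a restriction chosen after the values were seen, and 97 of them changed sign at least once (292 sign changes).

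The number of members called moved as follows, main value in brackets. All genes called in the same settings follow, in the same order unless named. In naive OT-I cells pGal against saline gave 5 in DESeq2 and 1 in batch 1 alone (3), and OVA against saline 0 in batch 2 alone (4). All genes called were 1153 and 26 (463), and 19 (744). In naive OT-II cells pGal against OVA and against saline gave 4 each in DESeq2 and 0 each in batch 2 alone (1 and 2). They gave 3 and 5 without the Cd79a-rich libraries, and the same without libraries rich in the other coreceptor. The first also gave 2 in limma voom, and OVA against saline 2 in DESeq2 (0). All genes called were 914 and 2490, 0 and 0, and 592 and 2067 (264 and 1655). Both also rose without libraries rich in the other coreceptor. Limma voom called 346, and DESeq2 146 (23) after OVA. In primed OT-I cells OVA against saline gave 1 as labelled, without the filter and with a replicate block (2), and in primed OT-II cells 0 without the Cd79a-rich libraries and without the filter (1). All genes called were 26, 47 and 24 (100), and 87 and 127 (219). The lineage difference in naive pGal against OVA gave 2 in DESeq2 and without the Cd79a-rich libraries (0), with 252 and 223 (75) of all genes. Primed saline libraries by lineage gave 1 without the Cd79a-rich libraries, 0 as labelled and 4 with a replicate block (2), with 1234, 0 and 1800 (1418) of all genes. Between experiments, OT-I saline gave 2 as labelled and against batch 1 or batch 2 alone (4), with 2139, 1441 and 753 (2940) of all genes. For OT-I responses, pGal against saline gave 2 in DESeq2 (0), and OVA against saline 2 in DESeq2 and 0 as labelled, with batch 1 only and with batch 2 only (1). All genes called were 71 (4), and 112, 4, 11 and 0 (13). For OT-II responses, pGal against OVA gave 1 in DESeq2 (0), and OVA against saline 2 in DESeq2 and 1 with RLE factors (0). All genes called were 212 (62), and 296 and 65 (64).

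Leaving out 1 library gave 2 to 4 and 3 to 5 in naive OT-I cells (pGal and OVA against saline), 0 to 2, 2 to 5 and 0 to 1 in naive OT-II cells (pGal against OVA, pGal and OVA against saline), 1 to 2 and 0 to 1 in primed OT-I and OT-II cells (OVA against saline), 4 to 5 for naive saline by lineage and 0 to 1 for its pGal against OVA difference. Between experiments it gave 3 to 4 and 6 to 6 for saline, 0 to 1 for the OT-I OVA response, and 0 to 1, 2 to 2 and 0 to 1 for the OT-II responses. The cause was not tested.

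Same-numbered libraries of different treatments had median correlations of deviations of -0.02 to -0.01. Same-numbered libraries of the 2 lineages had 0.0988 (naive, over 0.1 in 7 of 14 pairs) and 0.196 (primed, over 0.1 in 11 of 19), against -0.05 and -0.02 for other pairs, and 10 of the 11 libraries against their labels fell in same-numbered pairs. The labels do not say that a number marks a mouse, and not every pair exceeded 0.1, so the replicate block stayed an alternative; for the lineages the values are a hint of pairing. Over all genes DESeq2 called more than 1.5 times as many in both naive OT-II pGal comparisons above. Others with saline were 1153 against 463 and 1356 against 744 (naive OT-I, pGal and OVA). After OVA, primed OT-I and OT-II cells gave 371 against 100 and 714 against 219. Leaving out 1 library gave 102 (without pGal batch 2 replicate 2) to 515 (naive OT-I pGal against saline), 28 (without saline replicate 5) to 163 higher and 303 lower (without OVA replicate 10; primed OT-I OVA against saline) and 70 (without OVA batch 1 replicate 2) to 453 (without pGal batch 1 replicate 3; naive OT-II pGal against OVA). Batch 2 alone gave 0 in all 3 naive OT-II comparisons.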
